A study of Mus musculus with 4 samples.

Results

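The cells described here are a mesenchymal state of the fetal mouse penis in which *Sostdc1*, *Wnt16* and a small group of genes better known from neurons are detected together. A cell barcode was a member when it had 1000 to 10000 UMIs (barcodes that mark 1 captured mRNA molecule each), at most 25% mitochondrial and at most 25% *Hba* or *Hbb* UMIs, at least 3 of the 8 genes *Sostdc1*, *Wnt16*, *Gria2*, *Nts*, *Gap43*, *Plcxd3*, *Tfap2a* and *C1ql3* with a UMI, and no UMI of *Sox10* or *Epcam*. Of 47040 barcodes in 4 libraries, 33704 passed the limits on UMIs, and 4726 of those were members, called *Sostdc1/Wnt16* cells below. The 8 genes were picked from groups of these very cells, so their levels and the contrast with other cells are given as description, without a test.

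The libraries are 10x Genomics 3' libraries of the penises of male embryos at embryonic day (E) 16.5, when the urethra is closing. In 2 control libraries, labelled DTA-, the embryos carried the *Rosa-LSL-DTA* allele, a diphtheria toxin gene behind a stop cassette at the Rosa locus, on 1 chromosome and no Cre transgene. In 2 libraries labelled DTA+, called ablated here, the embryos carried the same *Rosa-LSL-DTA* allele and 1 copy of the *Nr5a1-Cre* transgene, so that cells with a history of *Nr5a1* activity made the toxin, and the cross of the study's methods also brings in *Rosa-LSL-tdTomato*. The transgene acts in the testis and the adrenal gland as well, and the study describes small testes and missing adrenals in ablated embryos, so effects inside the penis and effects of lost hormone sources cannot be told apart by this comparison. No source used here says whether each library is 1 embryo, so p-values measure the spread between these libraries. The control genotype above is that of the study, while the labels of both control libraries give the genotype as wild type.

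The mesenchyme of the genital tubercle surrounds the urethral epithelium and forms the glans, the prepuce, the corporal body and the dermis. SOSTDC1 is a secreted antagonist of BMP proteins and of Wnt signals, which it blocks at LRP coreceptors, and it is known from teeth, hair follicles, mammary buds and other organs in which epithelium and mesenchyme exchange Wnt and BMP signals. WNT16 is a secreted Wnt ligand, and TFAP2A is an AP-2 transcription factor of surface ectoderm, neural crest and appendage mesenchyme. GRIA2 is a subunit of AMPA glutamate receptors, GAP43 is a growth cone protein, NTS is the precursor of the peptide neurotensin, C1QL3 is a secreted synapse organizer and PLCXD3 belongs to the phosphatidylinositol phospholipase family.

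The first control library held 1030 *Sostdc1/Wnt16* cells with a median of 6045 UMIs, the second 1456 with a median of 4755.5 UMIs. The first ablated library held 1106 with a median of 4450.5 UMIs and the second 1134 with a median of 4912.5 UMIs. Summed over its *Sostdc1/Wnt16* cells, a library gave between 5317233 and 7447813 UMIs. The first control thus had the deepest cells, and it also stood apart in immediate early genes, which respond to tissue dissociation. Of 16 such genes, 14 were lowest in that library, with *Fos* at 1506 CPM (UMIs of a gene relative to all UMIs of the summed cells, on the usual fixed scale) against 5394 in the second control and 4937 and 3681 in the ablated libraries. The share of these cells, the counts of called genes and some single genes are therefore given without that library as well. Between 31 and 48 cell barcodes occurred in both libraries of a pair, with at most 1 shared barcode among the *Sostdc1/Wnt16* cells.

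The label was checked against markers of cell types. At least 3 of the 8 mesenchyme markers (*Col1a1*, *Col1a2*, *Col3a1*, *Pdgfra*, *Pdgfrb*, *Twist1*, *Prrx1*, *Dcn*) were detected in 99.8% to 100% of the *Sostdc1/Wnt16* cells of a library. This share was not compared with that in cells of other types, so the part of free RNA in it was not tested. Epithelial markers summed to between 14.4 and 25.1 CPM, Schwann and glial markers to between 5.54 and 14.9 CPM and neuronal markers to between 5.10 and 6.17 CPM. *Epcam* of the first and *Sox10* of the second of these lists are at 0 by the rule, so only the other members bear on the label. The most abundant neuronal marker, *Tubb3* or *Elavl4*, reached 3.80 CPM at most, and 2 or 3 of the 8 neuronal markers were at 0 in each library. The cells thus carried transcripts of a glutamate receptor and a growth cone protein with the neuronal markers near 0. Endothelial markers stayed at or under 38.1 CPM and macrophage markers at or under 19.7 CPM. UMIs of erythroid genes, most of them *Hbb-bs*, were more frequent, at 4264 and 2892 CPM in the control and 2215 and 464 CPM in the ablated libraries.

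*Sostdc1* (ENSMUSG00000036169; chromosome 12 of GRCm38, 36314139 to 36318452) was detected in 95.6% and 94.4% of the *Sostdc1/Wnt16* cells of the control libraries and in 84.4% and 86.6% of those of the ablated libraries. Its summed level was 1834 and 1418 CPM in control and 825 and 1107 CPM in ablated penises, so the genotypes did not overlap. *Wnt16* (ENSMUSG00000029671; chromosome 6, 22288227 to 22298522) was detected in 44.9% and 35.4% of control and 32.3% and 32.6% of ablated cells, at 119, 98.8, 95.5 and 100.1 CPM. These levels overlapped between the genotypes. *Nts* (ENSMUSG00000019890; chromosome 10, 102481756 to 102490486) was found in 20.5% and 21.0% of control and 7.41% and 7.50% of ablated cells, at 81.4 and 94.3 against 29.3 and 29.0 CPM. Both control libraries stood well above both ablated libraries for this gene. *Plcxd3* went the same way, with 59.7 and 64.0 CPM in control and 30.1 and 36.1 CPM in ablated penises. *Gria2* went the other way, with 365 and 517 CPM in control and 788 and 646 CPM in ablated penises. *Tfap2a* was at 261 and 316 CPM against 402 and 386 CPM, *Gap43* at 348 and 271 against 381 and 459 CPM, and *C1ql3*, whose values overlapped, at 51.3 and 75.6 against 59.4 and 38.2 CPM. A difference in these 8 genes changes which cells enter the group, and which enter the mesenchyme without these genes used for comparison below. Its part in the comparisons of other genes between genotypes was not tested.

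**Figure D1:**
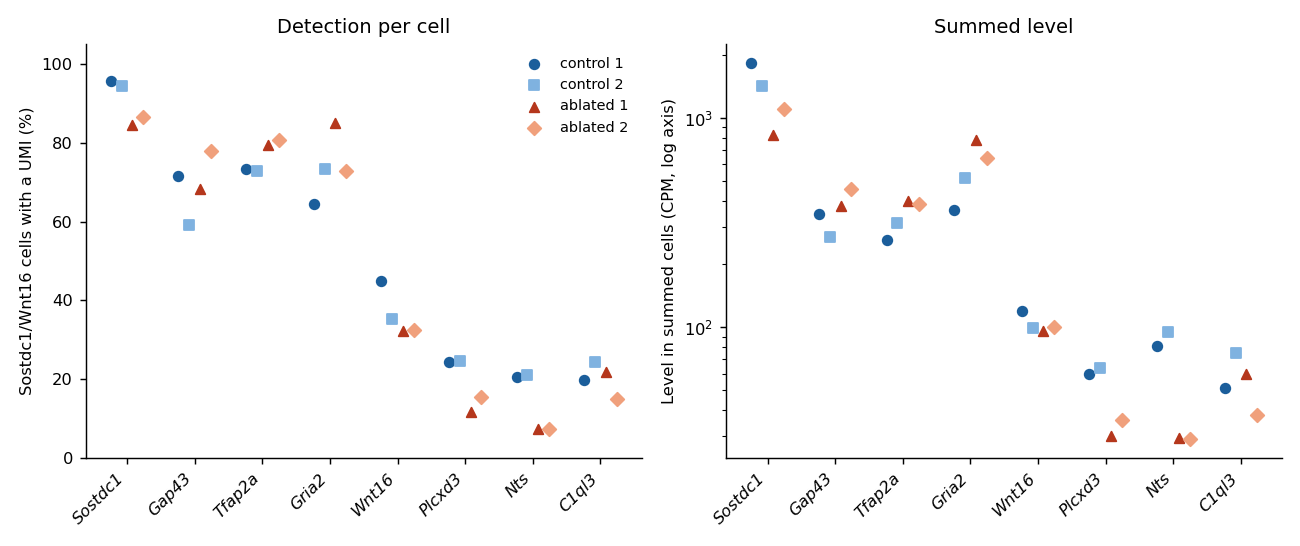
Share of *Sostdc1/Wnt16* cells with a UMI of each of the 8 genes of the rule (left, percent) and their level summed over those cells (right, CPM on a log axis), 1 point per library. *Nts* and *Plcxd3* were lower in both ablated than in both control libraries, and *Gria2* had its highest levels, 788 and 646 CPM, in the ablated libraries.

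Free RNA can give a UMI in a cell that does not make a transcript. In endothelial-like cells (102 to 133 per library, median depth 3649 to 5428 UMIs), the 7 genes of the rule other than *Gap43* were detected in 0% to 8.40% of cells. *Gap43* was detected in 21.8% to 32.8% of endothelial-like cells and is thus not limited to the *Sostdc1/Wnt16* cells. In macrophage-like cells (120 to 139 per library, median 5314 to 5764 UMIs), no gene of the rule exceeded 8.63%.

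Since an AP-2 factor is among the 8 genes, the stretches upstream of their transcription starts were searched for the AP-2 letters GCCNNNGGC, which read the same on both strands. Windows from RefSeq (GRCm38.p6; 250 bases before to 50 after a start) were matched for *Wnt16*, *Gria2*, *Nts*, *Plcxd3*, *C1ql3* and 2 starts of *Tfap2a*; *Sostdc1* and *Gap43* were not matched. The letters occurred in 1 of these 7 windows, against 16.6% of all 32851 windows and 4 of the 20 windows of the genes that stood out most in these cells (below). The match lies before *Wnt16*. The 250 bases before the starts of *Wnt16* (chr6:22287977-22288226, plus strand) and *Nts* (chr10:102490419-102490668, minus strand) are shown 5' to 3', since these genes encode the secreted ligand that names the cells and the peptide precursor with the largest difference between genotypes among the 8. Capitals mark the AP-2 letters.
Wnt16: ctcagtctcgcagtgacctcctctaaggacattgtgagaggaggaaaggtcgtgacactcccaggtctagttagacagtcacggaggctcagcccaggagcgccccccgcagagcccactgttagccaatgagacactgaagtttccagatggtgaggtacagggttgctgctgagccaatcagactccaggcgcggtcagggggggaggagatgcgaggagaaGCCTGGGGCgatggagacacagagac
Nts: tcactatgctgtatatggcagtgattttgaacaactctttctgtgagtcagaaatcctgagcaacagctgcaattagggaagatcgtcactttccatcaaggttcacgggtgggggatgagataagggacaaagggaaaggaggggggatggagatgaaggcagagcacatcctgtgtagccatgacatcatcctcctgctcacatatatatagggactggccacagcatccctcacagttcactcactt

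The mesenchyme used for comparison held 12062 kept cells with at least 2 of the 8 mesenchyme markers, none of the 8 genes of the rule and no UMI of *Sox10*, *Epcam*, *Pecam1*, *Cdh5*, *Ptprc*, *Tyrobp* or *Rgs5*. It is shallower, with medians of 4561.5, 3745, 3202 and 3321 UMIs in the order control 1 and 2, ablated 1 and 2. Mesenchymal cells with 1 or 2 of the 8 genes belong to neither group. Levels were compared as the log2 ratio of CPM plus 10 in each library. The 20 genes outside the rule that stood highest in the *Sostdc1/Wnt16* cells had a median log2 ratio of 1.80 ± 0.080 (SD, n = 4 libraries). *Slc26a7*, which encodes an anion exchanger, led them with 488, 631, 746 and 706 CPM in the *Sostdc1/Wnt16* cells and 48.2, 76.4, 155 and 147 CPM in other mesenchyme. Every library showed the excess, and it was larger in the controls, where other mesenchyme held less *Slc26a7*.

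Transcription regulators formed 1 group among these genes. *Lbh*, a transcription cofactor of limb bud and heart, was at 124 to 157 CPM against 12.6 to 28.1 CPM in other mesenchyme. *Meis1*, a homeodomain partner of HOX proteins, was at 212 to 286 CPM against 48.2 to 81.8 CPM. *Pax3*, a paired-domain factor of dermomyotome and neural crest, was at 52.7 to 70.1 CPM against 6.75 to 10.4 CPM, and *Sim1*, a bHLH-PAS factor, at 185 to 230.4 CPM against 36.8 to 65.5 CPM. *Nr2f2*, which encodes the orphan nuclear receptor COUP-TFII, was at 134 and 131 CPM in control and 210.1 and 207 CPM in ablated penises, against 32.6 to 64.7 CPM in other mesenchyme. The ranges of the *Sostdc1/Wnt16* cells and of other mesenchyme did not touch for any of these 5 genes, which were chosen for a high ratio in every library.

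A second group encodes matrix and secreted proteins. *Col14a1*, a collagen on the surface of fibrils, was at 764 to 1016 CPM against 166 to 289 CPM. *Col26a1* was at 421 to 541 CPM and *Col23a1*, a transmembrane collagen, at 256 to 323 CPM, against 129 to 156 and 52.4 to 96.9 CPM. *Ltbp1*, which binds latent TGF-beta, was at 533 to 621 CPM against 147 to 196 CPM. *Tnc*, the matrix protein tenascin C, was at 194 and 255 CPM in control and 281 and 369 CPM in ablated penises, against 47.8 to 90.2 CPM. *Bmp3*, a BMP family member that dampens BMP signals, was at 83.8 to 113 CPM against 12.02 to 26.55 CPM. The other genes of the 20 were *Filip1*, *Cpd*, *Tpm1*, *Fjx1*, *Ppp4r4*, *Gnai1*, *Ogfrl1* and *Galnt16*. Of 16 fibrillar matrix genes, 14 were higher in the *Sostdc1/Wnt16* cells in every library and none lower in every library, while 27.99% of 9026 genes with at least 10 CPM were higher and 25.98% lower.

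The 10 genes that stood lowest were *Sox9*, *Aspn*, *Mgp*, *Ecrg4*, *Ndufa4l2*, *Hes1*, *Col9a1*, *Col9a3*, *Zfhx3* and *Dlx5*. *Sox9*, the master factor of cartilage, was at 15.8, 6.85, 6.21 and 6.25 CPM against 170.4 to 233 CPM in other mesenchyme. *Aspn*, a small leucine-rich proteoglycan, was at 16.3 to 39.7 CPM against 282 to 397 CPM, and *Hes1*, a target of Notch signals, at 13.2 to 29.4 CPM against 120 to 174 CPM. These levels were far apart in all 4 libraries, as the choice of the genes favours. In mesenchymal cells with 1 and 2 of the 8 genes, *Sox9* already had means of 56.6 and 18.7 CPM. Its mean was 193 CPM with none and 9.15 CPM with 3, so a low level was not particular to the *Sostdc1/Wnt16* cells. *Hes1* had means of 142 CPM with none, 140 with 1, 73.4 with 2 and 31.6 with 3.

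**Figure D2:**
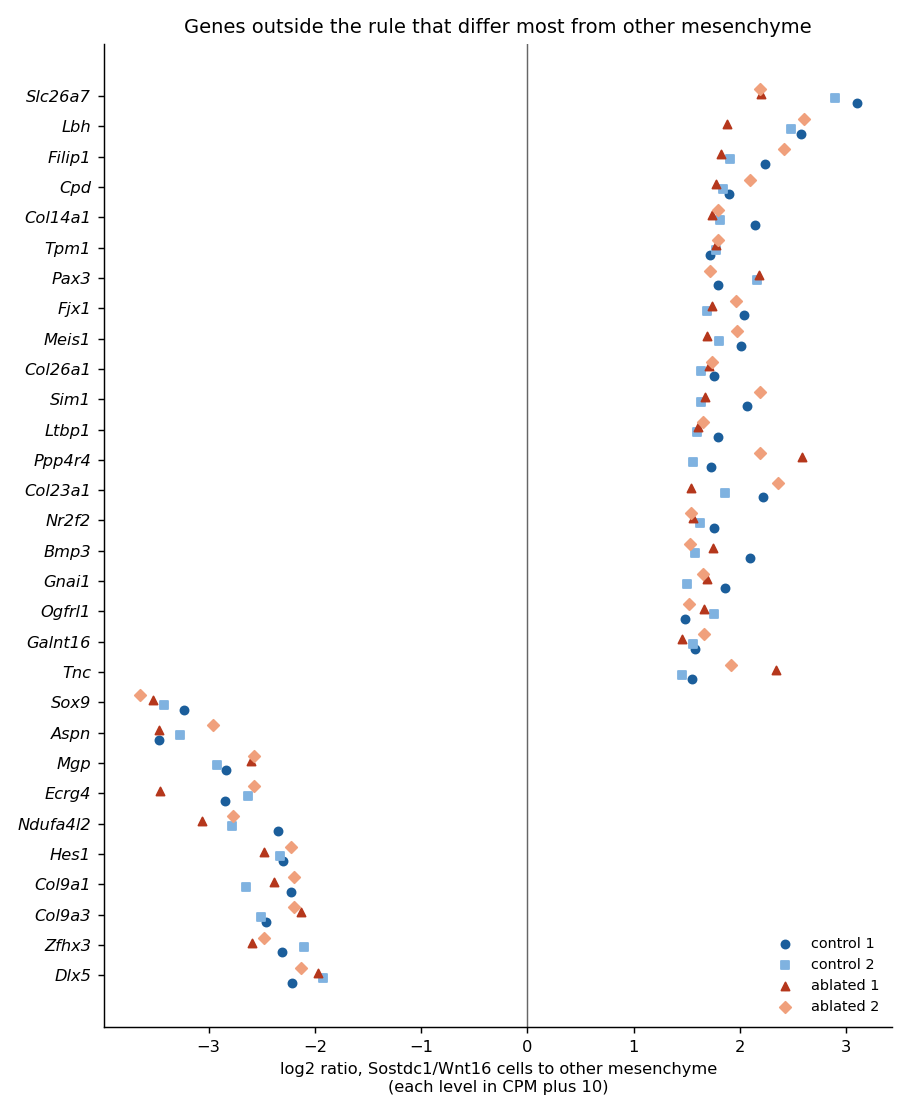
log2 ratio of the level in *Sostdc1/Wnt16* cells to that in other mesenchyme (CPM plus 10) for the 20 genes that stood highest and the 10 that stood lowest, 1 point per library. The 4 libraries lie on the same side of 0 for each gene because the genes were chosen for it, and *Sox9* lies between -3.65 and -3.23.

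The threshold of 3 detected genes was compared with the counts on either side of it. Cells with exactly 2 of the 8 genes numbered 956, 1095, 1028 and 1241 per library and cells with exactly 3 numbered 410, 596, 456 and 502. With 2 genes detected, *Slc26a7* was at 137, 251, 363 and 256 CPM, and with 3 at 347, 509, 646 and 524 CPM. *Pax3* was at 21.3 to 26.3 CPM with 2 and at 28.2 to 52.6 CPM with 3 genes. The median over the 20 genes of the mean level rose from 56.4 CPM with none of the 8 genes to 95.1 CPM with 2, 166 CPM with 3, 241 CPM with 4 and 299 CPM with 6. *Hoxd13* fell from 108 CPM with none to 52.7 CPM with 3 and 42.5 CPM with 5. Levels with none of the 8 genes are those of other mesenchyme. Cell depth moved with the number as well. Its median went from 4568 UMIs with none to 5958 with 3 in the first control. In the second ablated library it went from 3367 to 4680 UMIs. These depths with none cover 2930 and 4015 cells, where other mesenchyme held 2550 and 3618. The part of depth in the levels, which are relative to all UMIs, was not tested. The median over the 20 genes thus already differed below the threshold and went on rising above it. Not every gene did so, such as *Bmp3*, with means of 90.6, 101 and 87.4 CPM at 3, 4 and 5 genes.

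**Figure D3:**
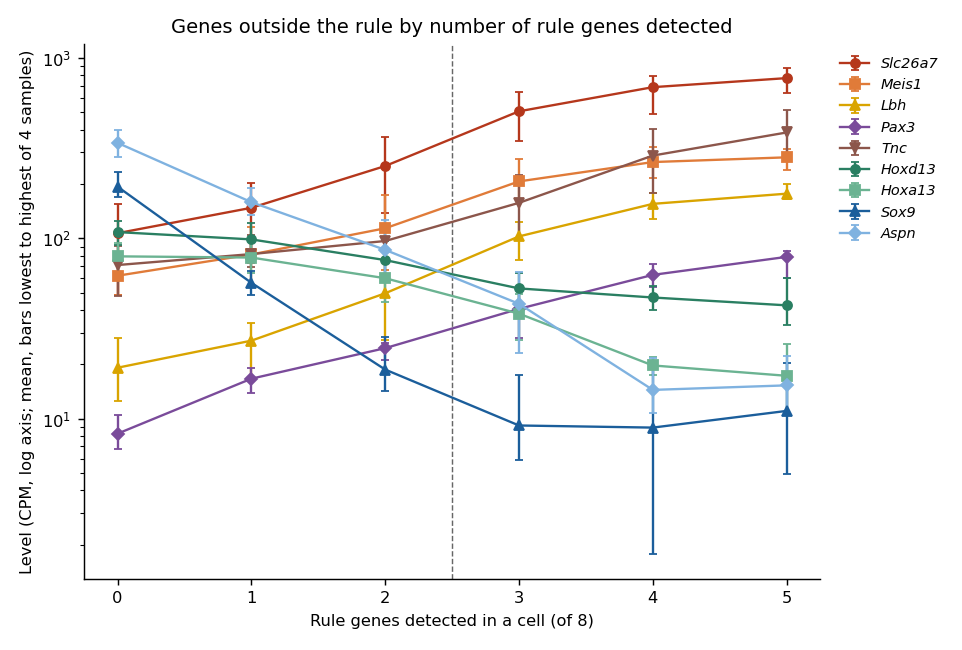
Mean level (CPM, log axis) of 9 genes outside the rule in cells with 0 to 5 of the 8 genes detected; bars run from the lowest to the highest of the 4 libraries and the dashed line marks the threshold. *Slc26a7*, *Meis1*, *Lbh*, *Pax3* and *Tnc* were higher with 5 than with none of the genes detected, and *Sox9*, *Aspn*, *Hoxa13* and *Hoxd13* lower. *Sox9* had means of 9.15, 8.91 and 11.02 CPM at 3, 4 and 5 genes and of 5.42 CPM at 6, which is not drawn.

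The libraries hold dissociated cells, so the site of the *Sostdc1/Wnt16* cells can be described only through genes known to mark positions. HOX13 proteins act in the most distal part of limbs and the genital tubercle. *Hoxd13* was at 43.2, 46.1, 41.9 and 59.4 CPM against 109, 107, 91.4 and 125 CPM in other mesenchyme, and *Hoxa13* at 27.2, 24.03, 24.6 and 27.2 CPM against 79.3, 64.7, 79.3 and 94.3 CPM. Both were lower in each library. *Hoxa9*, *Hoxd10*, *Hoxd11* and *Hoxd12* were lower in every library too, while *Hoxc11* was higher in every library, at 62.7 to 85.0 CPM against 48.0 to 57.1 CPM. *Hoxa10*, *Hoxa11*, *Hoxc9* and *Hoxc10* differed in direction between libraries. Of 11 posterior *Hox* genes with at least 10 CPM, 6 (54.5%) were lower in every library and 1 (9.09%) higher, beside 25.98% of all 9026 genes lower and 27.99% higher.

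Factors of the genital and body wall mesenchyme took both directions. *Isl1*, which marks the mesenchyme of the genital tubercle from early on, was at 336 to 493 CPM against 275 to 399 CPM, and *Tbx2*, *Tbx3*, *Tbx4*, *Tbx5* and *Tbx15* were likewise higher in each library. *Tbx5* was at 101, 91.3, 98.4 and 120.4 CPM against 77.9, 71.4, 75.9 and 88.7 CPM. *Meox2*, a homeobox factor of somites and limb muscle, stood highest in this list by its ratio, with 189 and 172 CPM in control and 57.7 and 73.5 CPM in ablated penises, against 11.2 to 23.8 CPM in other mesenchyme. *Hand2*, *Pitx1*, *Six2*, *Irx3* and *Irx5* were lower in each library.

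Lists for named parts of the penis are given by their members that were higher or lower in every library. Over all genes, 27.99% were higher and 25.98% lower. The share higher was near that in the distal glans list (28.6%) and 40% in the prepuce and subdermal fibroblast list, where 40% were lower. Of 7 distal glans genes, *Wnt5a*, a ligand of tubercle outgrowth, and *Bmp7* were higher in every library, while *Inhba*, *Msx2*, *Tac1*, *Tfap2c* and *Fgf10* were lower. *Msx2* was at 15.99, 5.24, 9.59 and 18.6 CPM against 51.3 to 117 CPM. Of 5 periurethral genes, 4 were lower in every library, among them *Ptch1*, the hedgehog receptor and target, at 22.0 to 41.0 CPM against 62.2 to 111 CPM. Only *Foxf2* of that list was higher in every library. All 6 corpus cavernosum and cartilage genes and all 5 tendon and osteogenic genes measured were lower in every library. Of these, *Sox9* and *Col9a1* were already lower in mesenchymal cells with 1 of the 8 genes. Their means there were 56.6 and 11.9 CPM, against 193 and 53.2 CPM with none. Of 5 prepuce and subdermal fibroblast genes, *Cd34* and *Akap12* were higher and *Dpt* and *Smoc1* lower in each library. *Akap12* was highest in cells near the threshold, at a mean of 317 CPM with 2 and 368 CPM with 3 of the 8 genes, against 200.3 CPM with none and 155 CPM with 5. Among 8 genes of the upper dermis and dermal condensate, *Twist2*, a dermal factor, was higher in every library, at 232 to 285 CPM against 124 to 223 CPM, and 5 were lower. On a list taken from the study for the *Nr5a1* lineage, which also holds *Akap12*, 5 of 7 genes (71.4%) were higher and 2 (28.6%) lower. No list of a part had most of its members higher, so the cells are not given the name of a part. The summed level of the distal glans list was higher in each library, at 1349 to 1946 CPM against 731 to 1407 CPM, though 5 of its 7 genes were lower.

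**Figure D4:**
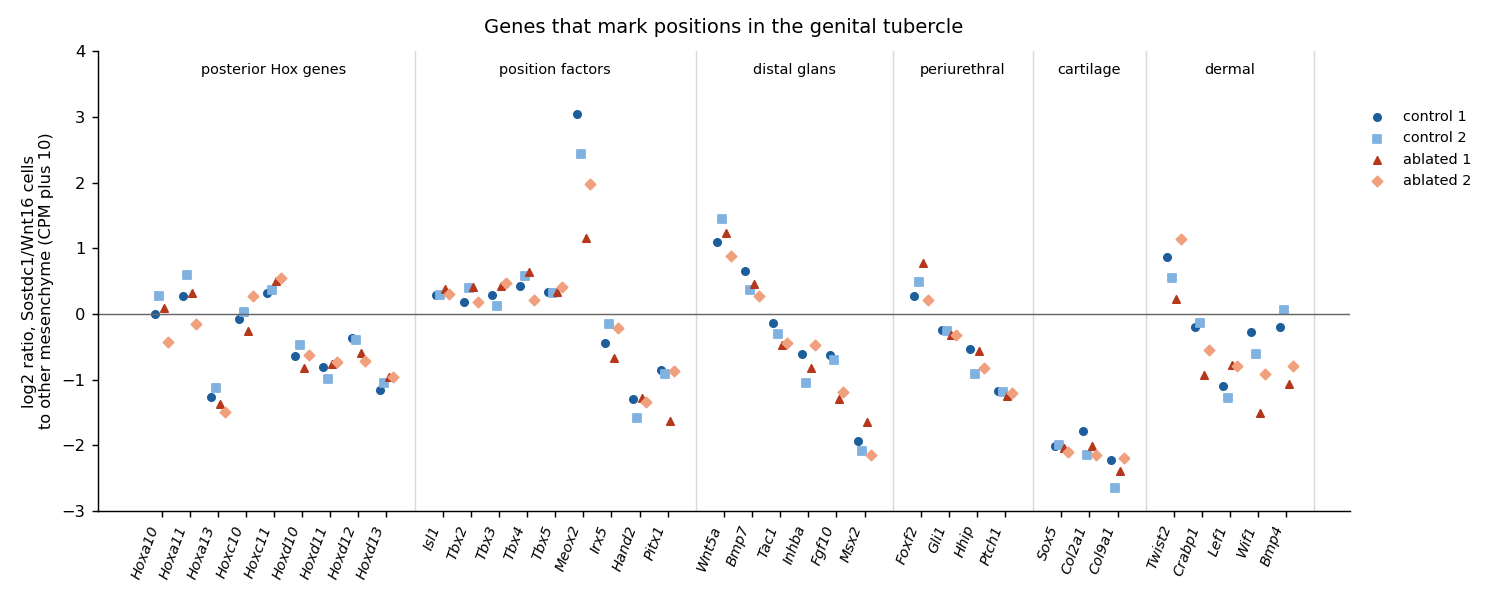
log2 ratio of the level in *Sostdc1/Wnt16* cells to that in other mesenchyme (CPM plus 10) for genes that mark positions, 1 point per library, grouped by list. *Hoxa13*, *Hoxd13*, the cartilage genes, *Msx2* and *Ptch1* lie below 0 in all 4 libraries, and *Meox2*, *Wnt5a* and *Tbx3* to *Tbx5* above 0.

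Wnt and BMP signals reach their target genes through Frizzled and LRP receptors and through BMP receptors. Among Wnt ligands, *Wnt5a* was at 1172 and 1432 CPM in control and 1755 and 1639 CPM in ablated penises, against 522 to 882 CPM in other mesenchyme. *Rspo1*, an R-spondin that strengthens Wnt signals, was at 200, 145, 185 and 289 CPM against 52.8 to 79.6 CPM, and *Wnt6* and *Wnt10a* were also higher in every library. *Rspo3* was lower, at 19.4 to 37.2 CPM against 85.4 to 151 CPM, and so were *Wnt5b*, *Wnt9a* and *Wnt11*. Of 10 ligands and R-spondins outside the rule, 4 were thus higher and 4 lower in every library (40.0% each), and this count and those that follow stand beside 27.99% of all 9026 genes higher and 25.98% lower. Of 8 secreted Wnt inhibitors, 6 were lower in every library, among them *Dkk1* and *Frzb*, and *Dkk3* was higher. Of 6 Wnt target genes, 5 were higher in each library. *Axin2*, a feedback inhibitor used as a readout of Wnt signals, was at 102, 96.8, 147 and 167 CPM against 46.5 to 61.9 CPM, and *Apcdd1*, another such inhibitor, at 403, 402, 451 and 510 CPM against 102 to 160 CPM. *Lef1* was the member that was lower, at 10.7 to 19.4 CPM against 33.4 to 41.1 CPM. Of 8 BMP target genes, 7 were lower in every library and none higher. *Id1* was at 358 to 703 CPM against 689 to 1127 CPM, and *Msx1* at 12.9 to 46.9 CPM against 133 to 225 CPM. Of the BMP antagonists outside the rule, *Nog*, *Grem1* and *Bambi* were lower and *Fstl1* and *Fstl3* higher in each library.

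Of 12 neuronal-type genes outside the rule with at least 10 CPM, 8 (66.7%) were higher in the *Sostdc1/Wnt16* cells in every library, where 27.99% of all genes were, and *Nrxn3* and *Elavl2* were lower, as were 25.98% of all genes. *Gria4*, a further AMPA receptor subunit, was at 60.6, 63.6, 73.9 and 76.7 CPM against 20.03 to 25.7 CPM. *Syt1*, the calcium sensor of synaptic vesicles, was at 16.8 and 14.5 CPM in control and 63.0 and 53.5 CPM in ablated penises, against 2.35 to 10.02 CPM. *Nr3c1*, the glucocorticoid receptor, was at 96.1 to 162 CPM against 56.3 to 107 CPM. *Esr1*, the estrogen receptor, differed in direction between libraries.

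Within the *Sostdc1/Wnt16* cells, levels were also set side by side for cells with and without a UMI of 1 of the 8 genes. Cells with a *Gria2* UMI numbered 665, 1067, 939 and 826, and cells without one 365, 389, 167 and 308, of similar median depth. The genes named in this paragraph were chosen for differing in the same direction in the 4 libraries, after their values were seen, and the split uses genes of the rule, so the values are a description with no test. *Myh11*, a smooth muscle myosin, was at 84.2 ± 20.3 CPM with and 26.3 ± 8.08 CPM without *Gria2* (SD, n = 4 libraries), *Pcdh17* at 57.2 ± 27.0 against 16.2 ± 9.61 CPM and *Sema3c*, a guidance factor, at 59.8 ± 19.7 against 23.8 ± 8.26 CPM. In the other direction, *Wif1*, a Wnt inhibitor, was at 61.8 ± 6.81 CPM with and 132 ± 19.8 CPM without, *Gatm* at 17.5 ± 5.50 against 66.9 ± 23.4 CPM and *Alx4* at 24.2 ± 7.58 against 59.7 ± 32.3 CPM. Cells with a *Wnt16* UMI had more *Tnc* (383 ± 102 against 215 ± 67.2 CPM), *Apcdd1* (569 ± 72.5 against 369 ± 50.8 CPM) and *Axin2* (169 ± 50.4 against 106 ± 28.9 CPM). They had less *Foxp1*, *Ebf1* and *Epha5*. Cells with an *Nts* UMI had less *Cxcl14* (32.6 ± 14.5 against 123 ± 50.99 CPM) and *Tac1* (19.3 ± 9.44 against 72.8 ± 39.9 CPM). Cells with a *Gap43* UMI had more of several cell division genes, such as *Top2a* at 225 ± 35.3 against 104 ± 18.7 CPM. They were also the deeper cells. Their medians were 6094 and 4836 against 5908 and 4719 UMIs in control and 4672 and 5082 against 3994 and 4362 UMIs in ablated libraries. The part of depth in the difference of the cell division genes was not tested.

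The first question of the ablation was what share of the kept cells of each library were *Sostdc1/Wnt16* cells. They made up 13.6% (95% exact binomial interval 12.8% to 14.3%) and 17.3% (16.5% to 18.1%) of kept cells in control and 13.3% (12.6% to 14.1%) and 12.1% (11.45% to 12.78%) in ablated penises; the intervals cover counting error only. The means were 15.4% ± 2.63 (SD, n = 2) and 12.7% ± 0.857 (SD, n = 2), a difference of -2.70 percentage points, and the exact two-sided permutation test gave p = 0.333, the smallest that 2 against 2 libraries allow. The control libraries were farther from each other than the nearer control was from the ablated libraries. Without the second control the difference was -0.84 and without the first -4.55 percentage points. With every cell thinned to 1000 UMIs the shares were 3.05% and 4.33% against 3.81% and 2.71%, which overlapped, with a difference of -0.43. With the study's upper limit of 7500 UMIs the shares also overlapped, at 12.4% and 16.6% against 12.9% and 11.2%. With *Sostdc1* taken out of the rule the shares were 8.62% and 10.9% against 9.38% and 7.90%, which overlapped, with a difference of -1.13. They overlapped as well without *Wnt16* (-2.00) or without *Nts* (-2.22), and did not without any 1 of the other 5 genes, where the difference lay between -2.90 and -2.56. A share of this kind moves with depth and with the level of the 8 genes as well as with cell number.

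Genes were then compared between the genotypes within the *Sostdc1/Wnt16* cells, on UMI counts summed per library, with edgeR's quasi-likelihood test and Benjamini-Hochberg adjustment over all genes tested. At an adjusted p under 0.05, 356 of 12600 genes (2.83%) differed, 150 higher (1.19%) and 206 lower (1.63%) in ablated penises; 3 of the 356 belong to the rule, which leaves 353, and these 3 stay in the totals below but are not read as results. The median log2 fold change over all genes tested was -0.0013. Without the first control 646 and without the second control 722 genes differed, of which 331 and 305 were among the 356; in these fits the lone control is assumed to vary like the ablated libraries. Without the first or the second ablated library, 335 and 343 differed, of which 227 and 248 were among the 356. Cells thinned to 1000 UMIs gave 71 of 4469 genes.

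The transcripts that label the genotype were checked first. *tdTomato* had 0 UMIs in the controls and 99.9 and 68.1 CPM in the *Sostdc1/Wnt16* cells of the ablated libraries, where 28.3% and 27.0% of cells had a UMI. Against the floor of 3 UMIs per control library, it was at least 143-fold higher. Over all barcodes, *tdTomato* had 0 UMIs in both controls and 3579 and 3140 in the ablated libraries. A control without the *Rosa-LSL-tdTomato* allele cannot be told apart here from one that carries it without expression. The genotypes may thus differ in Rosa alleles as well as in Cre, and transcripts of this locus are not read as responses to ablation. Other mesenchyme of the ablated libraries held 73.0 and 66.7 CPM, so the sequence was not limited to the *Sostdc1/Wnt16* cells, and the study's methods describe this transcript as leaky beyond the *Nr5a1* lineage. *Gt(ROSA)26Sor*, the host transcript of the targeted locus, was at 12.7 and 17.7 CPM in control and 54.9 and 61.6 CPM in ablated penises (log2 difference 1.86, standard error 0.194, adjusted p = 0.00057 in the quasi-likelihood test of edgeR). *Nr5a1* itself had 0 UMIs in the *Sostdc1/Wnt16* cells of 3 libraries and 1 UMI in those of the first ablated library, and the sequence of the reporter eGFP had none. *Ddx3y* of the Y chromosome was at 74.1 to 106 CPM, and *Xist* had at most 4 UMIs, as in male cells.

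After *tdTomato*, *Cpne4* rose most among the genes the naming rule picked. *Cpne4* (ENSMUSG00000032564; chromosome 9, 104547286 to 105034544), a copine that binds membranes in the presence of calcium, was at 4.43 and 1.88 CPM in control and 48.0 and 48.1 CPM in ablated penises. The log2 difference came to 3.89 (standard error 0.288, adjusted p = 0.0001 in the quasi-likelihood test of edgeR). Without the first control it was 4.605. *Neto1*, an auxiliary subunit of kainate receptors, rose from 6.49 and 8.46 to 43.1 and 28.7 CPM (2.18, standard error 0.249, adjusted p = 0.0012 from the same edgeR test). *Syt1* rose by 1.83 on the log2 scale from the values given above. *Stmn2*, a regulator of microtubules in growing axons, went from 18.5 and 32.1 to 96.1 and 88.7 CPM (1.79, standard error 0.223). In each of these genes both ablated libraries lay above both controls, as the rule for naming genes requires; 46.6% of all genes had no overlap between the genotypes.

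*Lum*, the proteoglycan lumican of collagenous matrix, was at 189 and 147 CPM in control and 602 and 564.2 CPM in ablated penises (log2 difference 1.73, standard error 0.159, adjusted p = 0.00034 in the quasi-likelihood test of edgeR). *Dkk2*, a secreted Wnt modulator that binds LRP coreceptors, was at 93.9 and 57.1 against 228 and 237 CPM (1.56, standard error 0.209, adjusted p = 0.003 from the same edgeR test). *Iyd*, the iodotyrosine deiodinase, was at 15.7 and 19.6 against 65.1 and 40.5 CPM, and it was at or under 2.35 CPM in other mesenchyme of every library. *Lratd1*, *Tmem200a* and *Etl4* rose by 1.56, 1.48 and 1.44 on the log2 scale. With cells thinned to 1000 UMIs, *Gt(ROSA)26Sor*, *Iyd*, *Lratd1*, *Tmem200a* and *Acta2*, a gene that fell (below), kept their direction but no longer passed the test. Their log2 differences there were 0.99, 1.38, 1.80, 1.57 and -1.56. *Tmem200a* did not pass in cells with at least 2 of the 8 genes either (1.28, adjusted p = 0.0526 in the quasi-likelihood test of edgeR).

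Among the genes that fell most, *Mt1* (ENSMUSG00000031765; chromosome 8, 94179082 to 94180327), which encodes a metal-binding metallothionein, went from 75.8 and 215 CPM to 18.4 and 10.47 CPM (log2 difference -3.41, standard error 0.432, adjusted p = 0.0021 in the quasi-likelihood test of edgeR). In CPM, the control libraries lay farther apart from each other than the lower of them lay from the ablated libraries. On the log2 scale this did not hold. The log2 difference of *Mt1* was -2.47 without the second and -3.97 without the first control. *Fkbp5* (ENSMUSG00000024222; chromosome 17, 28399094 to 28517527), a cochaperone of steroid receptors and a glucocorticoid-induced gene, was at 83.3 and 101 CPM in control and 15.8 and 18.1 CPM in ablated penises (-2.51, standard error 0.180, adjusted p = 0.0001 from the same edgeR test). *Adra2a*, an adrenergic receptor, went from 33.1 and 55.7 to 4.89 and 8.44 CPM (-2.79). *Srd5a2*, the enzyme that turns testosterone into dihydrotestosterone, was at 61.1 and 111 CPM against 23.7 and 11.1 CPM (-2.38, standard error 0.333, adjusted p = 0.0036 from the same edgeR test), and the log2 difference was -3.02 without the first ablated library. *Nrtn*, the neurotrophic ligand neurturin, was at 186 and 161 CPM against 57.9 and 53.7 CPM (-1.71, standard error 0.154).

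*Ramp3*, a partner of calcitonin-family receptors, *Fndc1*, *Col6a6*, a collagen VI chain, *Crispld1* and *Htra1*, a secreted protease, fell by 1.84, 1.83, 1.90, 2.00 and 1.66 on the log2 scale. *Fndc1* was at -1.22 without the second control and did not pass in cells with at least 2 of the 8 genes (-1.48, adjusted p = 0.073 in the quasi-likelihood test of edgeR), and *Crispld1* was at -2.58 without the second ablated library. *Acta2*, the smooth muscle actin, was at 81.7 and 99.6 CPM in control and 16.2 and 11.7 CPM in ablated penises (-2.78, standard error 0.203, adjusted p = 0.0001 in the quasi-likelihood test of edgeR). The 6 smooth muscle markers summed to 290 and 463 CPM in control and 182 and 158 CPM in ablated penises, none of them at 0, with *Tagln* or *Myh11* the most abundant. At least 3 of them were detected in 3.30% and 6.46% of control and 0.723% and 0.705% of ablated *Sostdc1/Wnt16* cells; the part of such cells in the fall of *Acta2* was not tested. *Cma1*, the mast cell protease chymase, was at 69.7 and 47.3 CPM against 19.9 and 2.20 CPM (-2.50, standard error 0.545, adjusted p = 0.036 from the same edgeR test). Few cells carried it, with a UMI in 2.14% and 3.09% of control and 2.62% and 1.15% of ablated *Sostdc1/Wnt16* cells. The 6 mast cell markers summed to 112 and 146 CPM against 56.6 and 6.42 CPM, with *Cma1* or, in the second control, *Tpsb2* the most abundant, and *Fcer1a*, a chain of the IgE receptor, at 0 in each library. The 6 skeletal muscle markers, led by *Myh3* in 3 libraries, summed to 31.0 and 30.2 CPM against 7.33 and 10.47 CPM. The log2 difference of *Cma1* was -4.79 without the first and -1.62 without the second ablated library. Without cells that had a UMI of another cell type, *Cma1* was at a log2 fold change of 0.17 with an adjusted p of 0.92 in the same edgeR test.

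**Figure D5:**
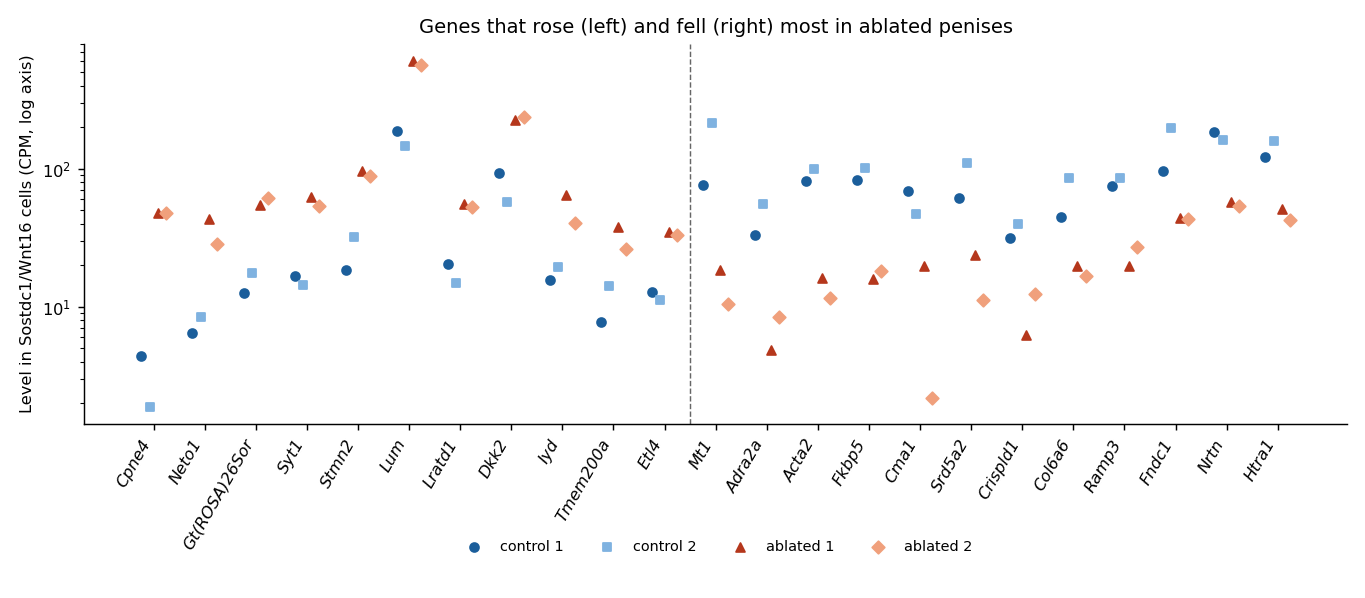
Level in *Sostdc1/Wnt16* cells (CPM, log axis) of 11 genes that rose and 12 that fell most in ablated penises, 1 point per library; *tdTomato*, at 0 in the controls, is not drawn. *Cpne4* lies at 4.43 and 1.88 CPM in control and at 48.0 and 48.1 CPM in ablated penises, and the control libraries differ most from each other for *Mt1*.

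Steroid-related lists, which were assembled with earlier results of these data known, are given by their counts. Of 16 tested glucocorticoid-induced genes, 6 fell (37.5%, where 1.63% of all genes were lower) and none rose, with a median log2 fold change of -0.88. They were *Fkbp5*, *Zbtb16*, *Mt1*, *Mt2*, *Klf9* and *Cdkn1c*. *Zbtb16*, a zinc finger factor, was at 12.5 and 16.5 CPM against 4.70 and 3.88 CPM, and *Klf9* at 75.05 and 140 against 49.3 and 50.7 CPM. *Dusp1* and *Nfkbia* of the same list were at log2 fold changes of 0.36 and -0.01 and did not pass. Of 8 tested androgen axis genes, 4 fell and none rose (median -0.56). *Srd5a2*, *Igf1* and *Pmepa1* were among them. *Igf1*, a growth factor, was at 121 and 118 CPM against 52.1 and 68.2 CPM (-1.06, standard error 0.164, adjusted p = 0.0062 in the quasi-likelihood test of edgeR). *Esr1* rose from 3.96 and 3.49 to 25.6 and 22.6 CPM (log2 difference 2.62, standard error 0.237, adjusted p = 0.00034 from the same edgeR test). It was the 1 of 4 tested steroid receptors that passed (25%, where 1.19% of all genes were higher), and 3 did not.

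Counts in the Wnt and BMP lists stand beside 1.19% of all genes higher and 1.63% lower. Of 11 tested Wnt ligands and R-spondins, *Rspo2* rose and none fell. It was at 1.90 and 0.537 CPM in control and 9.40 and 11.7 CPM in ablated penises. *Dkk2* was the 1 of 8 tested secreted Wnt inhibitors that differed, and *Ror1* and *Lgr5* the 2 of 15 Wnt receptors, both higher. None of the 8 tested Wnt target genes passed edgeR's quasi-likelihood test, with *Axin2* nearest, at 0.59 on the log2 scale (standard error 0.144, adjusted p = 0.056 from the same edgeR test). In the BMP list, *Bmp4* fell from 150 and 144 to 53.0 and 96.8 CPM (-1.03) and *Gdf6* rose from 10.6 and 9.53 to 24.4 and 27.9 CPM (1.31), as 2 of 16 tested ligands and receptors. *Smad9* rose as 1 of 9 BMP targets, and none of 8 antagonists outside the rule passed. Median log2 fold changes of these lists lay between 0.068 and 0.37.

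Of 19 tested neuronal-type genes outside the rule, *Neto1*, *Syt1*, *Stmn2* and *Cntn4* rose and *Gria1* and *Grik1* fell, 13 did not pass and the median log2 fold change was 0.21, where 1.19% of all genes were higher and 1.63% lower. *Gria1*, another AMPA receptor subunit, was at 19.3 and 18.5 CPM against 6.77 and 11.3 CPM (-1.12). *Meox2* fell by 1.53 on the log2 scale as the 1 of 13 tested position factors that passed, while none of 12 posterior *Hox* genes did. Of 7 tested prepuce and subdermal fibroblast genes, *Akap12*, *Dpt* and *Lum* rose and *Ly6a* and *Smoc1* fell, which is 71.4% of the list beside 2.83% of all genes. *Smoc1* was at 13.6 and 20.9 CPM against 1.13 and 0.507 CPM. *Foxl2*, of 6 periurethral genes, and *Kera*, of 5 tendon and osteogenic genes, rose, from 3.17 and 3.36 to 11.1 and 9.96 CPM and from 10.4 and 5.64 to 17.9 and 20.9 CPM. Of 9 *Nr5a1* lineage genes, a list taken from the study, which looked at *Grem1* and *Scube2* of it in these libraries, so that their direction is no independent evidence, *Myocd* and *Col6a6* fell and *Akap12* rose. The study uses *Akap12* as a marker of the prepuce in general, and it is counted in the prepuce list too. *Grem1* was at 19.8 and 23.6 CPM against 17.7 and 9.29 CPM and did not pass. No gene of the lists for the distal glans, the corpus cavernosum and cartilage, the cell cycle or immediate early genes passed; with 1828 genes (14.5% of all) at an unadjusted p under 0.05, this does not show that they were the same.

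Whether the genotype acted differently in *Sostdc1/Wnt16* cells than in other mesenchyme was tested as an interaction in edgeR's quasi-likelihood test, with the library as a block. Of 13942 genes, 100 passed (0.717%), 25 with a higher (0.179%) and 75 with a lower effect (0.538%) in the *Sostdc1/Wnt16* cells. The number was 81 without the first and 20 without the second control, of which 54 and 17 were among the 100, and 414 and 282 without the first and second ablated library; DESeq2 gave 29. In other mesenchyme alone, 258 of 13787 genes differed between the genotypes (1.87%). Other mesenchyme was chosen for holding no UMI of the genes of the rule. A difference in those genes between genotypes thus changes which cells enter either group. *Slc26a7* was at 48.2 and 76.4 CPM in control and 155 and 147 CPM in ablated other mesenchyme. Its interaction was -0.94 (adjusted p = 0.0052 in the quasi-likelihood test of edgeR). The part of such a change of cells in the interactions was not tested.

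*Stmn2* was the gene with the most positive interaction among those named by the rule. In other mesenchyme it was at 6.66 and 10.7 CPM in control and 8.67 and 13.0 CPM in ablated penises, so that its effect differed by 1.52 on the log2 scale (standard error 0.223, adjusted p = 0.015 in the quasi-likelihood test of edgeR). *Il1rap*, *Dock11*, *Lrrc8c* and *Pola1* had interactions of 0.96, 0.90, 0.90 and 0.89. *Dock11*, an activator of CDC42, was at 32.3 and 32.8 against 93.3 and 87.8 CPM in *Sostdc1/Wnt16* cells and at 14.3 and 16.7 against 23.8 and 21.7 CPM in other mesenchyme. Each of these 5 genes lost significance without the second control. Without the first control *Il1rap*, *Lrrc8c* and *Pola1* lost it as well, with adjusted p of 0.089, 0.13 and 0.088 in the quasi-likelihood test of edgeR, and in DESeq2 these 3 and *Dock11* did not pass.

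Genes with a negative interaction included *Stc1*, which encodes the secreted hormone stanniocalcin. It was at 38.6 and 58.4 CPM in control and 78.4 and 66.7 CPM in ablated *Sostdc1/Wnt16* cells, and at 8.04 and 7.47 against 50.4 and 54.7 CPM in other mesenchyme, an interaction of -2.18 (standard error 0.196, adjusted p = 0.00085 in the quasi-likelihood test of edgeR). The gene thus differed between the cell groups in controls more than in ablated penises. *Npnt*, the basement membrane protein nephronectin, was at 54.0 and 102 against 35.4 and 34.6 CPM in *Sostdc1/Wnt16* cells and at 104 and 77.9 against 170.1 and 200.008 CPM in other mesenchyme, where it rose (-2.18, adjusted p = 0.015 from the same edgeR test). *Lpl*, the lipoprotein lipase, had an interaction of -2.94, which no longer passed without the second control, and that of *Npnt* did not pass in DESeq2 and was -2.80 without the first and -1.47 without the second control. *Cma1* had one of -2.96, which was -0.21 with an adjusted p of 0.94 in the same edgeR test once cells with a UMI of another cell type were left out. Of the genes that fell most, *Fndc1*, *Nrtn*, *Ramp3*, *Adra2a*, *Crispld1*, *Srd5a2* and *Htra1* had a more negative effect in *Sostdc1/Wnt16* cells than in other mesenchyme by this test. Of these genes, only *Srd5a2* and *Htra1* also passed in other mesenchyme alone, and *Fndc1* did not fall there. *Fndc1*, a fibronectin domain protein, was at 96.6 and 199 against 44.0 and 43.1 CPM in *Sostdc1/Wnt16* cells and at 16.3 and 32.0 against 32.4 and 23.1 CPM in other mesenchyme (-1.95, adjusted p = 0.0003 from the same edgeR test). For *Fkbp5*, *Mt1*, *Acta2*, *Syt1* and *Dkk2*, whose effect went the same way in both cell groups, the interaction did not pass, with values of 0.07, -0.59, -0.27, 0.14 and 0.40.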

How the data were processed

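The authors aligned reads of 4 single-cell 10x 3' libraries of E16.5 penises to mm10 with tdTomato and eGFP sequences added (Cell Ranger 4.0.0 per the file headers) and deposited UMI counts per barcode and feature (32287 features), 1 matrix per library. The members and gene lists were chosen with earlier results of these data known. Counts of member cells were summed per library (5317233 to 7447813 UMIs) and tested between genotypes, 2 libraries against 2, with the quasi-likelihood test of edgeR 4.0.16 in R 4.3.3 (filterByExpr, TMM factors, Benjamini-Hochberg over all genes, threshold 0.05). The interaction took the library as a block. Levels are CPM of the summed UMIs and fold changes come from the edgeR fit. Doublets were neither called nor removed. Named genes were the 12 largest rises and the 12 largest falls among called genes averaging 20 CPM or more whose genotypes did not overlap, 5 per direction for the interaction, and, beside other mesenchyme, the 20 highest and 10 lowest genes of at least 50 CPM, with all list members. The steps were tested on simulated data. DESeq2 1.42.0, other filters, thinned cells and left-out libraries served as alternatives. Shares were computed in Python 3.11.15 with scipy 1.17.1. Intervals and floors cover counting error only. The toxin sequence was not analysed here. Some named genes are not reported here.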

Additional observations from a re-analysis of the deposited data

Results flagged for a closer look

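In 9 genes the effect of the genotype in *Sostdc1/Wnt16* cells differed from that in other mesenchyme of the same libraries (interaction in edgeR's quasi-likelihood test, 2 libraries per genotype), and these are among the genes the naming rule picked. The interaction was positive for *Stmn2* (1.52 on the log2 scale), *Il1rap* (0.96), *Dock11* (0.90), *Lrrc8c* (0.90) and *Pola1* (0.89). It was negative for *Cma1* (-2.96), *Lpl* (-2.94), *Stc1* (-2.18) and *Npnt* (-2.18). Both cell groups are defined by the genes of the rule, and the part of their differences between genotypes in these interactions was not tested. *Stc1* passed under every alternative that was run for it, while *Il1rap* and *Lrrc8c* failed the threshold in 9 settings each. *Cma1*, a mast cell gene detected in at most 3.09% of the *Sostdc1/Wnt16* cells of a library, is the entry whose size depends most on which cells are kept.

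The sequence of *tdTomato*, which lies outside the mouse gene annotation, had 531 UMIs in the *Sostdc1/Wnt16* cells of the first and 403 in those of the second ablated library and none in either control.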

How the results depend on the processing

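The count of 356 genes that differed between the genotypes became 639 with edgeR's likelihood ratio test, 841 with no filter on low counts and 71 in cells thinned to 1000 UMIs, where 4469 genes were tested, 150 of the 356 among them, of which 55 were called at this depth. Leaving out 1 library at a time gave 335 to 722. The number of genes with an interaction, 100, became 29 with DESeq2, 339 with the likelihood ratio test, 520 with no filter, 60 in cells with at least 2 of the 8 genes and 26 in thinned cells, and leaving out 1 library gave 20 to 414. Leaving out a library leaves 1 per genotype on that side, assumed to vary like the rest. Replicate numbers do not pair the libraries (r = -0.12 between same-numbered deviations over 12600 genes). With the replicate number as a block 554 genes passed, and with crossed numbers, chosen after seeing the data, 779.

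The difference in share was -0.43 percentage points in thinned cells and -4.55 to -0.84 with 1 library left out. The median ratio of the 20 genes, 1.80, was 1.99 with at least 4 genes detected, 1.51 against all other kept cells and 1.89 in thinned cells. *Cma1* reversed, to 0.17 without cells holding a UMI of another cell type and, for its interaction, to 2.45 in thinned cells. Of 425 values of named genes under the alternatives, 412 kept their direction and call and 12 lost the call, and of 160 interaction values 122 kept and 37 lost it, with *Cma1* the 1 reversal in each; the cause was not tested.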
